A study of Mus musculus with 6 samples.

Results

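The genes described here are those of the hypoxia response and of glycolysis, that is, the subunits and sensors of the hypoxia-inducible factors (HIF), genes that HIF is known to switch on, the enzymes that break glucose down to pyruvate, and the enzymes and carriers of lactate. A list of 40 mouse genes was drawn up by function, with earlier results of these data known. Of the 40, 37 had a probe set annotated to their symbol alone and were measured, among 18194 genes in all, and Gpi1, Eno1 and Bnip3l were not analysed here. Whole mouse embryos at embryonic day 9.5 were compared on Affymetrix arrays, 1 embryo per array, as littermate pairs from 3 litters. The 3 RFC1-/- embryos were homozygous for a targeted inactivation of RFC1, and the labels describe an open neural tube (craniorachischisis) and a chorion and allantois that had not fused. Their 3 RFC1+/+ littermates had a normal neural tube and chorioallantois. All 6 embryos were of the inbred SWV background, and all dams had been injected daily with 25 mg/kg folic acid. Every RFC1-/- embryo was malformed and no RFC1+/+ embryo was, so genotype and malformation cannot be told apart. The study describes RFC1-/- embryos at mid-gestation on this folic acid dose as delayed in development. Any difference in stage between the groups therefore cannot be told apart from genotype either. The comparison addresses whether embryos with few red cells carry the expression pattern of low oxygen.

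HIF is a pair of proteins. When oxygen is plentiful, prolyl hydroxylases of the Egln family mark its alpha subunit, the Vhl protein then sends it for breakdown, and when oxygen is scarce the subunit escapes, joins Arnt and binds DNA at short hypoxia response elements. Its targets promote vessel growth, raise glucose uptake and glycolysis, and hold pyruvate back from the mitochondria. The embryo at this stage is known to rely strongly on glycolysis while its yolk sac circulation starts up. Because the alpha subunit is controlled as a protein, its RNA need not follow its activity, and arrays measure RNA alone.

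The arrays were alike in their overall distribution, with medians from 5.43 to 5.49 on the log2 scale. Slc19a1, the mouse symbol of RFC1, read 9.97, 10.10 and 9.84 in the RFC1-/- embryos of litters 1, 2 and 3, against 9.11, 9.10 and 8.89 in their RFC1+/+ littermates, and the source of this signal was not tested. Embryo sex, read from Xist and Y-linked genes, was the same in both embryos of litter 1 and differed between the littermates of litters 2 and 3. Markers of visceral endoderm, the absorptive layer of the yolk sac, rose for 18 of 18 measured genes, and their summed linear signal lay between 26693 and 71088 in RFC1-/- embryos, against 3454 to 7535 in RFC1+/+ embryos. Primitive erythroid markers fell for 10 of 14 measured, with sums of 1276 to 4846 in RFC1-/- embryos, against 28932 to 42066 in RFC1+/+ embryos. In whole embryos, fewer cells of a type and less RNA per cell cannot be told apart. Neural progenitor markers fell for 8 of 10, cardiomyocyte markers rose for 8 of 10 and endothelial markers for 5 of 10. The part of these shifts in the results below was not tested.

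Of the 37 measured members, 8 rose and 0 fell in RFC1-/- embryos. A gene counts as risen or fallen at an adjusted p under 0.05 from limma with the litter as a block, adjusted by the Benjamini-Hochberg method over all 18194 genes. The share that rose was 21.6% of the members, against 3.67% of all genes, and the share of all genes that fell was 1.65%. At an unadjusted p under 0.05, 21 members were higher and 1 was lower, against 1890 higher and 1464 lower of all 18194 genes. The risen members were the secreted peptide gene Adm, the glycolytic enzymes Pfkp, Pfkl and Hk1, the vessel growth factor Vegfa, the collagen hydroxylase P4ha2, the HIF target Ankrd37 and the lactate carrier Slc16a1. By role they were 4 of 11 HIF targets, 3 of 13 glycolytic enzymes, 1 of 4 lactate genes, 0 of 3 regulators of glycolytic flux and 0 of 6 oxygen sensing genes and HIF subunits. The 0 of the last role goes with 3 of its genes higher at an unadjusted p under 0.05, and the 0 of the flux regulators with 2 higher and 1 lower. The median log2 difference of the members, RFC1-/- minus RFC1+/+, was 0.41, against -0.01 for all genes. In 24 members all 3 RFC1-/- values lay above all 3 RFC1+/+ values, against 12.8% of all genes, and in 1 member, Pfkfb4, all lay below, against 13.4%.

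The calls depended on the litters, and most on litter 1. Without it, limma called 4 members higher, and 1.30% of all genes, and the median of the members was 0.20. Adm, Pfkp and Vegfa kept their calls and Epas1 gained one, while Hk1, Pfkl, Slc16a1, Ankrd37 and P4ha2 lost theirs. Without litter 2, 5 members were called higher, and 2.90% of all genes, with Hk1, Pfkl and Ankrd37 lost. Without litter 3, 10 members were, and 4.73% of all genes, with Pfkl and Slc16a1 lost and Egln3, Pfkfb3, Slc16a3 and Ddit4 gained. With arrays centred on their median, 5 members were, and 3.07% of all genes, with Hk1, Ankrd37 and P4ha2 lost. A random-variance paired test, rewritten here after the methods' description, was run at 0.001 on 17 member genes left by a variation filter. It gave 1 higher and 0 lower unadjusted and 0 in either direction after adjustment. This version is not the authors' software, the settings of which are unknown here, and its counts do not stand for those of the study's own test. Adm, Pfkp and Vegfa kept their calls in every limma fit run. When all 45101 probe sets were fitted instead of 1 for each gene, 5 of the 80 member probe sets rose, against 1.87% of all probe sets. These 5 were both probe sets of Adm and 1 each of Vegfa, Pfkp and Pdk1.

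**Figure D1:**
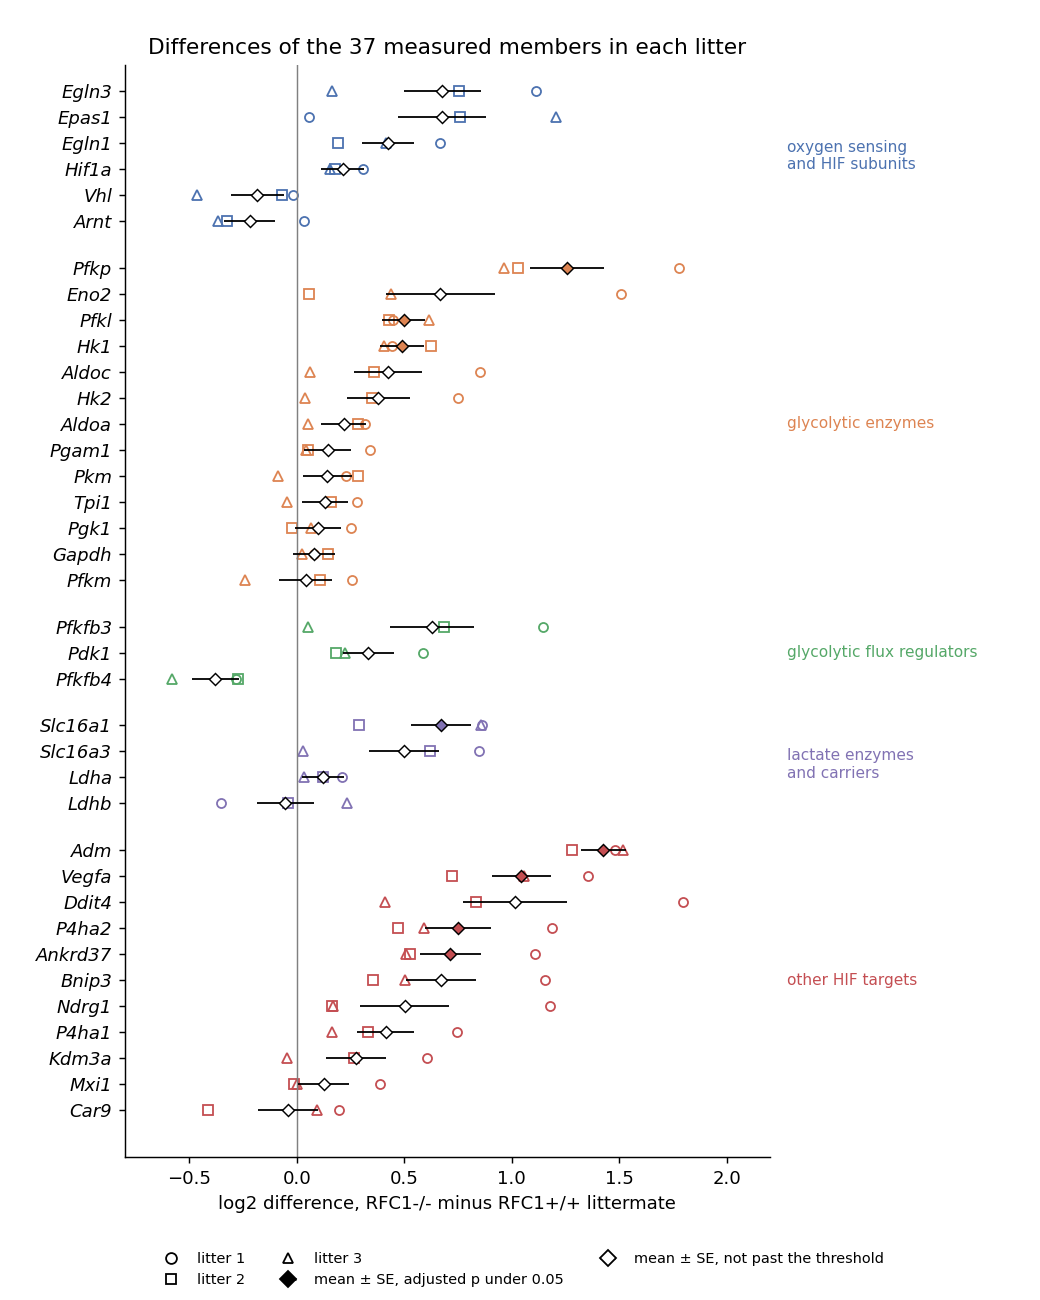
Log2 difference, RFC1-/- minus RFC1+/+ littermate, of each of the 37 measured members, grouped by role. Open circles, squares and triangles are litters 1, 2 and 3, and diamonds with bars are the limma mean ± standard error, filled where the adjusted p was under 0.05. Diamonds lie right of 0 for 32 members, and 8 of them are filled.

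The largest difference among the members was that of a HIF target outside metabolism. Adm encodes adrenomedullin, a peptide that widens and builds vessels. Its log2 values were 9.28, 9.06 and 8.94 in RFC1-/- embryos (litters 1, 2 and 3, as in all values by embryo), against 7.80, 7.77 and 7.43 in RFC1+/+ embryos. The groups did not overlap and every litter differed by more than 1, so that Adm rose 2.69-fold (log2 difference 1.43, standard error 0.10, limma adjusted p = 0.00342). Its second probe set differed by 1.51. Vegfa, which draws endothelial cells into new vessels, stood at 8.27, 7.89 and 8.26 in RFC1-/- embryos, against 6.92, 7.17 and 7.20 in RFC1+/+ embryos. This was a 2.06-fold rise (log2 difference 1.04, standard error 0.14, limma adjusted p = 0.0117), with the lowest RFC1-/- embryo, that of litter 2, still above the highest RFC1+/+ embryo. The dimmer probe set of Vegfa differed by 0.33 and was not past the threshold.

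P4ha2 encodes a prolyl hydroxylase that stabilises collagen. Its values were 9.23, 8.83 and 9.24 in RFC1-/- embryos, against 8.04, 8.36 and 8.65 in RFC1+/+ embryos (log2 difference 0.75, standard error 0.15, limma adjusted p = 0.0406). Ankrd37, an ankyrin repeat gene known as a HIF target, gave 9.01, 8.60 and 8.52 in RFC1-/- embryos, against 7.91, 8.07 and 8.01 in RFC1+/+ embryos (log2 difference 0.71, standard error 0.14, limma adjusted p = 0.0387). For both genes the groups were apart, and the littermates of litter 1 differed most.

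Ddit4, Bnip3 and P4ha1 had groups that did not overlap but missed the threshold. Ddit4, which restrains mTOR signalling under stress, measured 11.16, 10.62 and 10.30 in RFC1-/- embryos, against 9.36, 9.79 and 9.89 in RFC1+/+ embryos. Its mean log2 difference of 1.02 (standard error 0.24, limma adjusted p = 0.0656) was close to that of Vegfa, but the 3 litters ran from 0.41 to 1.80. Bnip3, which marks mitochondria for removal, measured 12.19, 11.62 and 12.07 in RFC1-/- embryos, against 11.03, 11.27 and 11.57 in RFC1+/+ embryos (log2 difference 0.67, standard error 0.16, limma adjusted p = 0.0698). P4ha1, which encodes the alternative to P4ha2 among the collagen hydroxylase subunits, measured 10.21, 9.81 and 9.89 in RFC1-/- embryos, against 9.47, 9.47 and 9.73 in RFC1+/+ embryos (log2 difference 0.41, standard error 0.13, limma adjusted p = 0.149). In all 3 genes litter 1 gave the largest difference. Of the remaining targets, Kdm3a, a histone demethylase, differed by 0.28 and Mxi1, an antagonist of Myc, by 0.13, both with overlapping groups. Ndrg1, a stress-induced gene, differed by 0.50 on its brightest probe set, also with overlapping groups (limma adjusted p = 0.258). Its litters 1, 2 and 3 differed by 1.18, 0.16 and 0.17, and its 5 probe sets ran from 0.03 to 0.50. Car9, a carbonic anhydrase known as one of the most hypoxia-responsive genes in tumours, lay between 4.75 and 5.22 in RFC1-/- embryos, against 4.84 to 5.16 in RFC1+/+ embryos, with no separation of the groups (log2 difference -0.04, 95% interval -0.37 to 0.29). Its mean signal of 4.99 was below the median of every array (5.43 to 5.49), and whether the probe set detected the transcript was not tested.

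**Figure D2:**
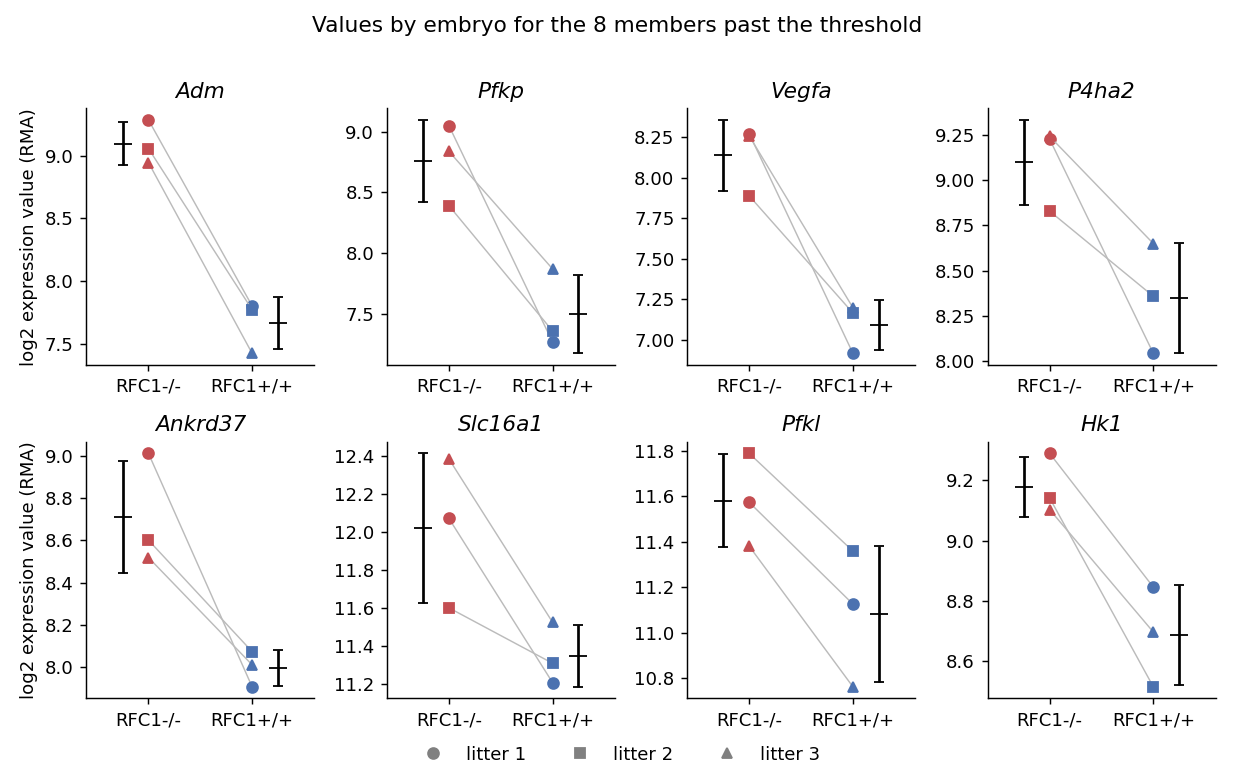
Log2 expression values (RMA) of the 8 members past the threshold, 1 panel a gene, with RFC1-/- embryos at the left and RFC1+/+ embryos at the right of each panel. Grey lines join littermates, marker shapes give the litter, and bars are the mean ± SD of 3 embryos; each panel has its own vertical range. In all 8 panels the 3 RFC1-/- values lie above the 3 RFC1+/+ values.

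The promoters of the members were read for the core letters of the hypoxia response element, ACGTG or GCGTG, on both strands (CACGT and CACGC as read on the other). The window ran from 250 bases before to 50 bases after the outermost listed transcription start of each gene in RefSeq, build GRCm38.p6, and 35 of the 37 measured members had one. ACGTG stood in 19 of the 35 windows, which is 54.3%, against 23.2% of the 14453 tested genes with a window. GCGTG also stood in 19, against 44.4% of tested genes. With GCGTG counted too, 27 of the 35 members held a core, 77.1%, against 55.7% of tested genes. Among the 8 risen members 6 held at least 1 core of either kind, 75.0%, and among the 27 other members with a window 21 did, 77.8%. ACGTG alone stood in 3 of the 8 risen members, 37.5%, and in 16 of the 27 others, 59.3%. GCGTG stood in 6 of the 8, 75.0%, and in 13 of the 27, 48.1%. An E-box, CACGTG, contains ACGTG on both strands and stood in 5 member windows, 14.3%, against 9.04% of tested genes. A match describes letters only and is no evidence of binding. Many members were listed as known HIF targets, so their share beside that of all genes describes the list and not these embryos. The stretches below, all before the start, show the cores in capitals with 15 bases on either side of the outermost ones, for 4 risen members and for Bnip3 and Pgk1, which did not pass the threshold.
Adm (chr7:110627552-110627622, plus strand): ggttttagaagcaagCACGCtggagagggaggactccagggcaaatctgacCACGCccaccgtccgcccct
P4ha2 (chr11:54100802-54100874, plus strand): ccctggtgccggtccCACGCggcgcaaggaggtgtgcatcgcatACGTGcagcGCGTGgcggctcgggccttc
Slc16a1 (chr3:104638449-104638549, plus strand): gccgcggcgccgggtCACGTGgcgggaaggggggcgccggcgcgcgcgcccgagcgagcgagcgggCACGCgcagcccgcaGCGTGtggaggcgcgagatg
Pfkl (chr10:78009887-78009921, minus strand): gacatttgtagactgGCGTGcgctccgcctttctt
Bnip3 (chr7:138909522-138909638, minus strand): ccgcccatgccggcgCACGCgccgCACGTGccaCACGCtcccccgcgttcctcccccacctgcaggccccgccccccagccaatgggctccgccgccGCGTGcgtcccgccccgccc
Pgk1 (chrX:106186935-106186988, plus strand): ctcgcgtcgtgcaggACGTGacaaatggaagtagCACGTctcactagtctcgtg
Adm held GCGTG 90 and 54 bases before its start and no ACGTG. P4ha2 held ACGTG at 78 bases, between GCGTG cores at 107 and 69. Slc16a1 and Bnip3 each held an E-box, at 200 and 108 bases, beside GCGTG cores. Pfkl held a single GCGTG at 99 bases, and Pgk1, whose log2 difference was 0.10, held ACGTG at 150 and 131 bases. Vegfa and Hk1 held no core before the listed start. The listed starts of Pfkp, Ankrd37 and Ldha lie inside the annotated span of the gene, and their windows, with 3, 4 and 5 cores before the start, are not printed.

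Of the 3 risen glycolytic enzymes, 2 were subunits of phosphofructokinase. Pfkp, the platelet-type subunit of phosphofructokinase, which catalyses the committed step of the pathway, measured 9.05, 8.39 and 8.84 in RFC1-/- embryos, against 7.27, 7.36 and 7.87 in RFC1+/+ embryos. It rose 2.39-fold (log2 difference 1.26, standard error 0.17, limma adjusted p = 0.0122), with groups that did not overlap. Its other probe sets differed by 0.86 and 0.07, the last of them at a signal between 4.18 and 4.49 on all arrays. Pfkl, the liver-type subunit, stood at 11.57, 11.79 and 11.38 in RFC1-/- embryos, against 11.13, 11.36 and 10.76 in RFC1+/+ embryos. The groups were separated by only 0.02, between the RFC1-/- embryo of litter 3 and the RFC1+/+ embryo of litter 2, but within litters the differences were close to each other at 0.45, 0.43 and 0.62 (mean 0.50, standard error 0.10, limma adjusted p = 0.0402). With the litter left out of the fit its adjusted p was 0.125. Pfkm, the muscle-type subunit, differed by 0.04 with overlapping groups.

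Hexokinases trap glucose in the cell. Hk1 measured 9.29, 9.14 and 9.10 in RFC1-/- embryos, against 8.85, 8.52 and 8.70 in RFC1+/+ embryos (log2 difference 0.49, standard error 0.10, limma adjusted p = 0.0438). On this probe set all 3 litters differed by similar amounts, 0.44, 0.63 and 0.41. The dimmer probe set of Hk1 differed by 0.23, with overlapping groups and litters at 0.55, 0.48 and -0.34. Hk2, the form usually described as HIF-induced, ran from 11.25 to 11.68 in RFC1-/- embryos, against 10.93 to 11.21 in RFC1+/+ embryos, and its difference of 0.38 did not pass (limma adjusted p = 0.227). Aldoc, a brain-type aldolase, differed by 0.43. Eno2, the neuronal enolase, gave 5.58, 4.44 and 4.83 in RFC1-/- embryos, against 4.07, 4.38 and 4.40 in RFC1+/+ embryos, a low signal in which the embryo of litter 1 stood apart from the other RFC1-/- embryos (log2 difference 0.67, standard error 0.25, limma adjusted p = 0.220).

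The enzymes with the brightest probe sets differed by small amounts. Gapdh, read from the array's control probe sets, measured 13.94, 14.04 and 13.93 in RFC1-/- embryos, against 13.85, 13.90 and 13.91 in RFC1+/+ embryos (log2 difference 0.08, 95% interval -0.15 to 0.31, limma adjusted p = 0.761). The groups did not overlap, yet all 6 embryos lay within 0.19. Pgk1, phosphoglycerate kinase, measured 13.80, 13.75 and 13.80 in RFC1-/- embryos, against 13.55, 13.78 and 13.74 in RFC1+/+ embryos (log2 difference 0.10, 95% interval -0.15 to 0.35, limma adjusted p = 0.728). Aldoa, Tpi1, Pgam1 and Pkm differed by 0.22, 0.13, 0.14 and 0.14, and the upper ends of their 95% intervals lay at 0.47, 0.39, 0.40 and 0.41.

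These 6 enzymes and Ldha were the 7 members with a mean signal above 12 on the log2 scale. Their differences ran from 0.08 to 0.22, all above 0, with a median of 0.13. The 13 members with a signal from 8 to 10 had a median of 0.63, and 5 of them rose. Over all genes the median difference was -0.01 above 12 and -0.02 from 8 to 10, and 8 of the 477 genes above 12 rose, 1.68%, against 4.99% from 8 to 10. Slc2a3, a high-affinity glucose carrier and no member of the list, was among those 8. It measured 13.30, 13.16 and 13.49 in RFC1-/- embryos, against 12.30, 12.36 and 12.75 in RFC1+/+ embryos, and rose 1.8-fold (log2 difference 0.85, standard error 0.11, limma adjusted p = 0.0105). Slc2a1, the ubiquitous glucose carrier, gave 12.96, 12.98 and 13.02 in RFC1-/- embryos, against 12.31, 12.45 and 12.90 in RFC1+/+ embryos, and did not pass (log2 difference 0.43, limma adjusted p = 0.122). Some genes in this range were thus called.

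**Figure D3:**
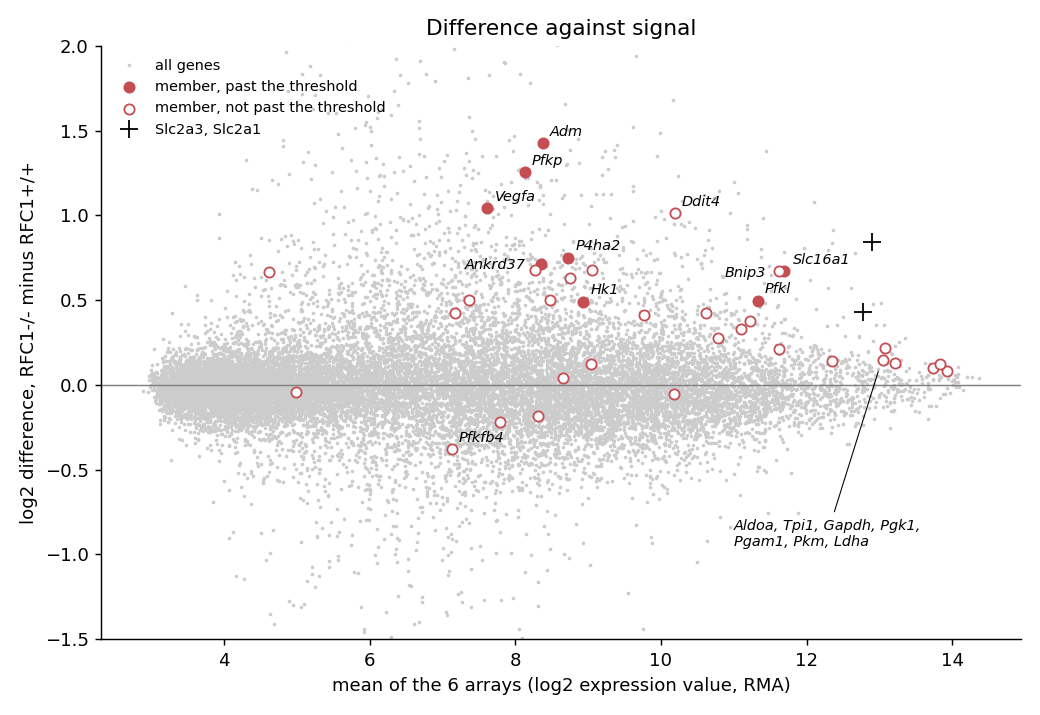
Log2 difference, RFC1-/- minus RFC1+/+, against the mean of the 6 arrays on the log2 scale. Grey points are all genes tested (93 beyond the vertical range are not drawn), red circles the 37 members, filled where past the threshold, and crosses Slc2a3 and Slc2a1. The 7 members above a signal of 12 lie between 0.08 and 0.22.

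Among the regulators of glycolytic flux, 3 genes gave 2 directions. Pfkfb3 makes the allosteric activator of phosphofructokinase. It measured 9.34, 9.03 and 8.81 in RFC1-/- embryos, against 8.19, 8.35 and 8.76 in RFC1+/+ embryos, and its groups were apart although litter 3 hardly differed (log2 difference 0.63, standard error 0.20, limma adjusted p = 0.138). Without litter 3 its adjusted p was 0.0100. Pfkfb4, a related enzyme that is also hypoxia-inducible in cultured cells, was the member with the lowest difference, -0.38 (standard error 0.11, limma adjusted p = 0.115), and lay between 6.79 and 7.02 in RFC1-/- embryos, against 7.28 to 7.37 in RFC1+/+ embryos. Pdk1, the kinase that shuts pyruvate dehydrogenase, differed by 0.33 on its brightest probe set. Its 4 probe sets differed by 0.33, 0.45, 0.49 and 0.97, the last of which passed in the fit over all probe sets (limma adjusted p = 0.0349).

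Lactate leaves and enters cells through monocarboxylate carriers. Slc16a1, which encodes MCT1, measured 12.07, 11.60 and 12.38 in RFC1-/- embryos, against 11.21, 11.31 and 11.53 in RFC1+/+ embryos. It rose 1.59-fold (log2 difference 0.67, standard error 0.14, limma adjusted p = 0.0444), with the smallest difference in litter 2. Slc16a3, which encodes MCT4, the carrier that exports lactate from glycolytic cells, gave 7.82, 7.70 and 7.33 in RFC1-/- embryos, against 6.97, 7.08 and 7.30 in RFC1+/+ embryos (log2 difference 0.50, standard error 0.16, limma adjusted p = 0.155). Its groups were only 0.03 apart, and litter 3 differed by 0.03. Ldha, the lactate dehydrogenase subunit that favours lactate production, measured 13.91, 13.91 and 13.86 in RFC1-/- embryos, against 13.69, 13.79 and 13.83 in RFC1+/+ embryos (log2 difference 0.12, 95% interval -0.11 to 0.36, limma adjusted p = 0.623). Ldhb, the subunit of oxidative tissues, differed by -0.05 with overlapping groups.

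None of the 6 oxygen sensing genes and HIF subunits passed the threshold. Hif1a measured 11.64, 11.69 and 11.84 in RFC1-/- embryos, against 11.33, 11.52 and 11.69 in RFC1+/+ embryos, with overlapping groups (log2 difference 0.21, 95% interval -0.02 to 0.45, limma adjusted p = 0.321). Its 4 probe sets disagreed. They differed by 0.21, 0.09, 0.04 and -0.66, and on the last the RFC1+/+ embryo of litter 1 stood at 8.70 while the other 5 embryos lay between 6.34 and 7.24. Epas1, which encodes the HIF-2 alpha subunit prominent in endothelium, stood at 9.06, 9.30 and 9.82 in RFC1-/- embryos, against 9.002, 8.54 and 8.61 in RFC1+/+ embryos (log2 difference 0.68, standard error 0.20, limma adjusted p = 0.128). Its difference was near 0 in litter 1 and 1.21 in litter 3, the reverse of most members.

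The prolyl hydroxylases are themselves HIF targets. Egln3 measured 8.89, 8.55 and 8.37 in RFC1-/- embryos, against 7.77, 7.80 and 8.21 in RFC1+/+ embryos (log2 difference 0.68, standard error 0.18, limma adjusted p = 0.0871), and without litter 3 its adjusted p was 0.00684. Egln1, the main oxygen sensor of the family, lay between 10.66 and 10.97 in RFC1-/- embryos, against 10.30 to 10.47 in RFC1+/+ embryos, and differed by 0.42 (limma adjusted p = 0.109). Arnt, the constitutive partner, and Vhl, the adaptor for breakdown, differed by -0.22 and -0.18 with overlapping groups. On their brightest probe sets, both hydroxylases thus lay on the higher side and the partner and the adaptor on the lower side. No call was made for any of them. The 5 probe sets of Arnt disagreed, running from -0.22 to 0.14, with 2 above 0.

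The size of the members' differences varied by litter. Their median log2 difference was 0.59 in litter 1, 0.28 in litter 2 and 0.15 in litter 3, against medians no farther than 0.02 from 0 for all genes in each litter. For 29 of the 37 members, 78.4%, litter 1 gave the highest difference of the 3, against 31.3% of all genes. Both embryos of that litter took part. The RFC1-/- embryo of litter 1 was the highest of the 3 for 26 members, 70.3%, against 26.3% of all genes, and the RFC1+/+ embryo of litter 1 was the lowest of the 3 for 27 members, 73.0%, against 37.8% of all genes. Members are not independent of one another, and these counts describe 6 embryos. Among the RFC1+/+ embryos, that of litter 1 had the highest summed decidua (maternal tissue) markers, 4309 against 1931 and 2143. The same held for megakaryocyte markers, 1049 against 617 and 406, and for visceral endoderm and primitive erythroid markers. It was not the highest in neural progenitor, cardiomyocyte, endothelial or trophoblast markers. The part of these tissues in the members' differences was not tested.

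HIF targets varied most, with a median of 1.15 in litter 1, 0.35 in litter 2 and 0.41 in litter 3. The 8 risen members had medians of 1.15, 0.58 and 0.74 in the 3 litters, and Adm, Pfkl and Hk1, on their brightest probe sets, were the most even across them. The summed erythroid marker signal was 33.0-fold lower in the RFC1-/- embryo than in its littermate in litter 1, 7.51-fold in litter 2 and 10.3-fold in litter 3. Summed visceral endoderm markers were 6.10-fold, 7.73-fold and 18.7-fold higher in litters 1, 2 and 3. On the scale of median log2 differences, the 14 erythroid markers differed by -2.28, -2.29 and -1.64 in litters 1, 2 and 3, so that litter 1 stood apart in their linear sum and not in their median, and the part of either cell type in the members' differences was not tested.

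**Figure D4:**
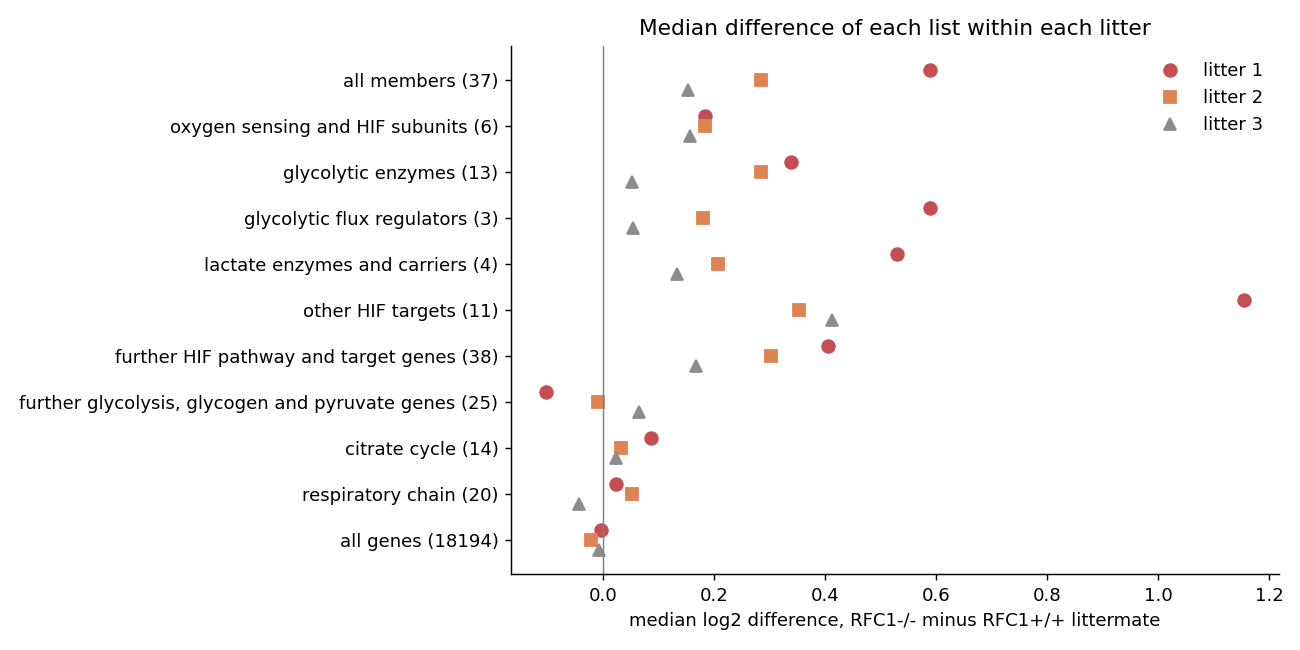
Median log2 difference, RFC1-/- minus RFC1+/+ littermate, of each gene list in litters 1, 2 and 3, with the genes measured given in brackets. All members together had medians of 0.59, 0.28 and 0.15, and all genes lay no farther than 0.02 from 0.

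Other genes of these pathways came from lists made by function. Over all genes 3.67% rose and 1.65% fell, with a median difference of -0.01. Of 38 further HIF pathway and target genes measured, 10 rose, 26.3%, and 1 fell, 2.63%, with a median difference of 0.34. The largest rises were those of Igfbp1, a binding protein of insulin-like growth factors, at 1.42 (limma adjusted p = 0.0122), of Ppp1r3c, which directs glycogen storage, at 1.39 (adjusted p = 0.0142), of the nuclear receptor gene Rora at 1.24 (adjusted p = 0.0125) and of the small GTPase gene Rab20 at 1.15 (adjusted p = 0.0123). Rab20 had a low signal, from 4.39 to 5.62 in RFC1-/- embryos, against 3.38 to 4.22 in RFC1+/+ embryos. Igfbp1 and Rab20 differed most in litter 3, and Ppp1r3c and Rora in litter 1. The 1 that fell was Tfrc, the transferrin receptor, which red cell precursors express strongly, at -0.51 (adjusted p = 0.0331). Of 25 further genes of glycolysis, glycogen and pyruvate, 3 rose, 12%, and 1 fell, 4%, and the median was -0.05. Hkdc1, a hexokinase-like gene, differed by 1.32 (limma adjusted p = 0.00923), Pgam2, the muscle phosphoglycerate mutase, by 0.91 (adjusted p = 0.0201), and Pgm1, which links glycogen to glycolysis, by 0.85 (adjusted p = 0.00882). Bpgm, which makes the red cell regulator of oxygen release, fell by 0.58 (adjusted p = 0.0267).

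The mitochondrial lists gave no call. In limma 0 of 14 citrate cycle genes and 0 of 20 respiratory chain genes passed, also at an unadjusted p under 0.05, with median differences of 0.10 and 0.02. Their single differences ran from -0.22 to 0.22 and from -0.13 to 0.24. Over all genes 3.67% rose and 1.65% fell, and at those shares lists of this length may hold no call. At an unadjusted p under 0.05, 3354 of all 18194 genes passed in either direction. Of 6 genes of gluconeogenesis only Fbp2, the muscle-type fructose bisphosphatase, passed (log2 difference 1.48, limma adjusted p = 0.0153), and the median of the 6 was 0.04.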

How the data were processed

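Total RNA of 6 whole embryos was labelled and hybridized to Affymetrix arrays. The authors deposited log2 expression values for 45101 probe sets, made with RMA (background correction of perfect match probes, quantile normalization and median polish); the sources used here state no version. All columns were used. Arrays give no read depth, and their number limits the precision.

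Groups and litters came from the labels. RFC1-/- minus RFC1+/+ was fitted with limma 3.58.1 in R 4.3.3, with the litter as a block, over 18194 genes, each on its brightest probe set of 1 symbol (34958 probe sets had 1 symbol, 932 several, 9211 were unnamed here), and was tested on simulated data. Littermates come from the same litter by their labels, although deviations from the group means correlated only at 0.01, -0.03 and -0.20 within litters 1, 2 and 3. Named genes were the members called, those with groups apart by a mean difference of at least 0.5, 8 set genes, up to 4 called genes from each other list, and Tfrc, the only fallen gene of its list, chosen after its values were seen. Members and lists were chosen with earlier results of these data known. The 1.5-fold variation filter of the methods left 2982 probe sets, on which a random-variance paired test, rewritten here with its prior fitted on those probe sets, was run at 0.001. Tables and plots were made in Python 3.11.15 (numpy 2.4.6, pandas 2.3.3, matplotlib 3.10.9, scipy 1.17.1). Promoter sequences and gene positions were those of RefSeq, GRCm38.p6.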

Additional observations from a re-analysis of the deposited data

How the results depend on the processing

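The count of 8 risen members lay between 8 and 10 without the replicate block (8, with 1156 genes called in all), with a gene's probe sets averaged, with the probe set of largest change, with dim genes left out, with an intensity trend, after a second quantile normalization and with embryo sex as a covariate. In those fits 3.01% to 6.30% of the genes tested rose. The count was 5 with arrays centred on their median, where 3.07% of all genes rose. It was 4 of the 14 members left by the 1.5-fold variation filter, where 380 of the 1453 genes left, 26.2%, rose. With a gene's probe sets averaged, Hk1 lost its call and Pdk1 gained one. With the litter out of the fit, Pfkl and Slc16a1 lost their calls and Egln3 and Ddit4 gained one. By the methods' t-test at 0.001, in the version rewritten here and not the authors' software, the count of risen members was 1 unadjusted. It was 0 after Benjamini-Hochberg adjustment, where 0 of the 2982 probe sets passed. Unadjusted at 0.001, 108 of the 2982 probe sets were higher. At an unadjusted p under 0.05 by this test, 11 of 17 member genes left by the filter were higher. By probe set, 13 of 20 member probe sets were, against 852 of all 2982. Leaving out 1 litter gave 4 to 10 risen members, 355 to 1199 genes called in all and a median difference of the members of 0.20 to 0.44, the lowest values all without litter 1. Without litter 2, Hk1, Pfkl and Ankrd37 lost their calls. No setting called a member lower.

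The genes called in all, 968, became 537 with the variation filter, which tested 1453 genes, and 1796 with embryo sex, a fit with 1 residual degree of freedom. With the variation filter the median difference of the members was 0.68, against 0.45 for all genes it left, and 13 members had groups that did not overlap, against 25 without it (the last count was added after seeing the data). Hif1a turned to -0.078 with its probe sets averaged and to -0.66 with the probe set of largest change. The members followed through the settings were those called, those with groups apart by a mean difference of at least 0.5, and the 8 set genes. No other of these changed direction under any setting. Pfkm, Ldhb, Mxi1 and Car9, whose litters differed in sign, were among the members not followed. With 3 pairs, the smallest difference that passed among the members was 0.49.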
